A study of Homo sapiens with 6 samples.

Results

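The genes of Polycomb repressive complex 2 (PRC2) were examined here for chromatin accessibility in human naive embryonic stem (nES) cells given dimethyl α-ketoglutarate (dm-αKG). The genes were EZH1, EZH2, EED, SUZ12, RBBP4, AEBP2, MTF2, PHF19 and JARID2. Of the 171517 accessible sites that were counted in every library, 162 overlapped these 9 genes or the 20 kb on either side of them. JARID2 held 48 of the sites, AEBP2 37, EZH1, RBBP4 and PHF19 13 each, EED and SUZ12 10 each, and EZH2 and MTF2 9 each. The sites of each gene were numbered along the chromosome, and no site fell to a pair of the genes. All 162 entered the test, since no filter on low counts was used, and 18 of them lay within 1 kb of the start of another coding gene.

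The cells were of the established human embryonic stem cell line H9 and were grown as naive cells in tt2iLGö medium, which holds the inhibitors PD0325901, CHIR99021 and Gö 6983 and human LIF, under low oxygen. All 6 libraries shared this medium, and in all of them the mouse feeder cells had been depleted before the cells were plated on laminin. The 3 control libraries received no dm-αKG and carry the label DMSO, and the 3 dm-αKG libraries received 4 mM for 24 h. The labels put this treatment after 48 h in plain medium, whereas the study's methods describe plating in medium that already held dm-αKG. The replicates are described as biological replicates of an experiment done once, in 1 line, so the p-values below measure the spread between these cultures only. In ATAC-seq a transposase cuts open chromatin and adds sequencing adapters, so a site with more reads was more accessible. Because whole cultures were measured, a site open in fewer cells and a site less open in each cell cannot be told apart.

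PRC2 places the repressive mark H3K27me3 on histone H3 and keeps developmental genes silent in pluripotent cells. EZH2 and EZH1 are its alternative methyltransferases, EED reads the mark and stimulates the enzyme, SUZ12 is the scaffold, and RBBP4 binds the histone. MTF2 and PHF19 are Polycomb-like proteins that bring the core complex to CpG-rich DNA, while AEBP2 and JARID2 belong to the other form of the complex, in which JARID2 helps to recruit and activate it. The mark is removed by the H3K27 demethylases KDM6A and KDM6B, which use α-ketoglutarate as a co-substrate.

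The sequences below are those of sites that changed most clearly, 4 of the 5 less accessible sites and the 1 more accessible site with the smallest adjusted p. They are the plus strand of hg38 as read from the reference genome. Capitals mark a match, on either strand, to a searched motif, and sites without capitals held none of them.
JARID2 site 36, an intronic site of which the central 300 bases are shown (chr6:15461171-15461470): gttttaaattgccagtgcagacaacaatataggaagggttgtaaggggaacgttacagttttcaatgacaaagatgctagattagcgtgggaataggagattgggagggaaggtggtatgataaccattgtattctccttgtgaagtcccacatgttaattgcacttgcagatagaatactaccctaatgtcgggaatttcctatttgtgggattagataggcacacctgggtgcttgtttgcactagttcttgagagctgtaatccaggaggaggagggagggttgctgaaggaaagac
AEBP2 site 23, intronic, with a KLF match (chr12:19482574-19482784): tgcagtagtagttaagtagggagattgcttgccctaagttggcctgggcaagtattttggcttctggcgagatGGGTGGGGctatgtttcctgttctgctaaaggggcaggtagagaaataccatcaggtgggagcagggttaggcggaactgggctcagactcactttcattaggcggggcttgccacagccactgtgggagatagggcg
JARID2 site 21, intronic (chr6:15382873-15383085): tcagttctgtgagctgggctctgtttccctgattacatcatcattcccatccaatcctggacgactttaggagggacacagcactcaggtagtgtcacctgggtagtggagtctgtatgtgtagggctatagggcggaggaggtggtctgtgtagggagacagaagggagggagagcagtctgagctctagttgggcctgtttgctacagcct
AEBP2 site 32, intronic (chr12:19573201-19573416): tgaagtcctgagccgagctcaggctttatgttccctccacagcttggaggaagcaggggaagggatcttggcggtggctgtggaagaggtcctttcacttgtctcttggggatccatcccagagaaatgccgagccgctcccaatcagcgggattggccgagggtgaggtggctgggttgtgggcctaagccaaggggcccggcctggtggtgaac
EZH1 site 6, intronic and close to the gene's start, with an AP-1 match (chr17:42744367-42744567): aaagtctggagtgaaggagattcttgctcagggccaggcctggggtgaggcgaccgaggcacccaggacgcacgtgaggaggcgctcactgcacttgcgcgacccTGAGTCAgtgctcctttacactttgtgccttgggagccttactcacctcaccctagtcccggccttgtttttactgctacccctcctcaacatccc

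The libraries held between 13025674 and 26828622 counts in the sites, with scaling factors between 0.991 and 1.01, and the 162 sites took between 0.0951% and 0.0993% of each library. Values below are normalised counts, the reads of a site scaled to the mean effective library size. Of the naive pluripotency genes KLF17, DPPA5, DNMT3L, SUSD2, DPPA3, TFCP2L1, NANOG and POU5F1, 7 of 8 had an accessible promoter site, and DPPA3 had none in the table. The summed promoter counts of these genes lay between 2866 and 2954 in control and between 2970 and 3104 with dm-αKG, and 1 of the 7 sites, that of KLF17, became less and 1, that of SUSD2, more accessible. All 4 primed (ZIC2, SFRP2, THY1, DUSP6) and all 4 trophoblast genes (GATA2, GATA3, CDX2, TFAP2A) also had such a site, as did 4 of 5 fibroblast genes, all but COL3A1, so an accessible promoter alone did not mark the cell type. The summed counts of control and of dm-αKG were 811 to 943 and 726 to 798 for the primed list, with 2 of 4 sites less accessible (0 by DESeq2, 2 by limma voom), 1104 to 1190 and 1157 to 1223 for the trophoblast list, with 0 past the test by edgeR, DESeq2 or limma voom (0 with an unadjusted p below 0.05), and 606 to 656 and 648 to 724 for the fibroblast list, with 1 site more accessible (0 by DESeq2 or limma voom). The part of these shifts in the results below was not tested.

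At the highest promoter site of each PRC2 gene, accessibility did not pass the test for any gene. Each gene was read at the site of highest mean count within 1 kb of one of its transcript starts, and by edgeR's quasi-likelihood test 0 of these 9 promoter sites passed an adjusted p of 0.05 (0 also at an unadjusted p below 0.05, and 0 by DESeq2 and by limma voom). Over the highest promoter site of each coding gene, 5.11% became less and 8.53% more accessible. Lower promoter sites of the PRC2 genes did pass. Of all 40 sites within 1 kb of a start of their own gene, 1 became less (2.5%) and 4 more accessible (10%) by edgeR. By DESeq2 these numbers were 0 and 1. Over all sites within 1 kb of a coding start the edgeR shares were 3.86% and 10.4%. The log2 fold changes of the 9 sites, dm-αKG against control, ran from −0.14 at EED to 0.18 at EZH1, with a median of 0.01.

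**Figure D1:**
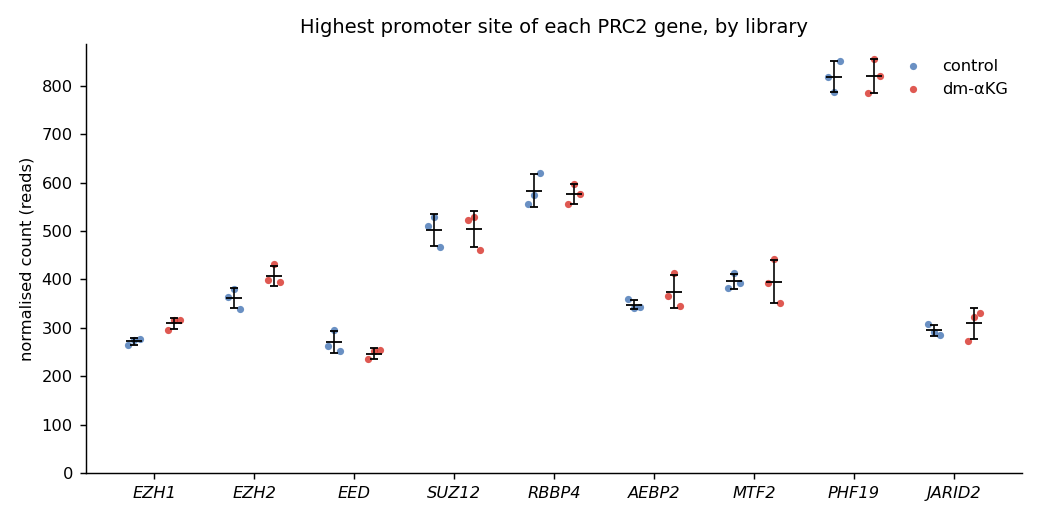
Normalised count (reads) of the highest promoter site of each of the 9 genes; each point is a library (3 control, blue; 3 dm-αKG, red), and the black marks give the mean ± SD. For EZH1 and EZH2 the 3 dm-αKG libraries lie above the 3 controls, and no site passed an adjusted p of 0.05.

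The methyltransferase genes stood highest in this order of changes. The promoter site of EZH2 (chr7:148884281-148884486, 5′ exon) held 364, 380 and 339 reads in the control libraries and 398, 431 and 394 with dm-αKG, and that of EZH1 (chr17:42744888-42745095, first exon) held 264, 275 and 277 in control and 295, 316 and 316. Both sets of libraries stood apart without overlap, but with log2 fold changes of 0.17 (95% interval −0.0037 to 0.34) and 0.18 (−0.02 to 0.37) neither passed the test (adjusted p = 0.174 and 0.208, edgeR). Libraries of the treatments did not overlap at 32.4% of all 171517 sites. The GC content was 75% at the EZH2 site and 73.5% at the EZH1 site. Among all sites of 72% to 76% GC, the difference between treatments was 0.10 (log2). The part of GC in these values was not tested.

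The reader and the scaffold showed no shift at their highest promoter sites beyond the spread of the libraries. At EED (chr11:86245159-86245359) control libraries held 263, 296 and 251 reads and dm-αKG libraries 234, 251 and 254, a log2 fold change of −0.14 (−0.35 to 0.06), and the libraries overlapped. At SUZ12 (chr17:31936832-31937041) control libraries held 511, 529 and 466 and dm-αKG libraries 522, 529.8 and 461. This site has a near-identical copy, 208 of 210 aligned bases, beside the pseudogene SUZ12P1 on the same chromosome, so its count is uncertain, as is that of the neighbouring SUZ12 site 4 (196 of 212 bases). RBBP4, shared by several chromatin complexes, gave 555, 574 and 621 in control and 555, 597 and 576 with dm-αKG (chr1:32651056-32651260).

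The accessory subunits were as even at their highest promoter sites. MTF2 (chr1:93079099-93079300) held 383, 413 and 394 reads in control and 393, 441 and 352 with dm-αKG, and PHF19 (chr9:120868647-120868847) held 817, 788 and 851 against 785, 856 and 820.2. AEBP2 (chr12:19439376-19439750) held 360, 341 and 344 against 366, 413 and 346, and JARID2 (chr6:15245313-15245516) held 308, 292 and 285 against 273, 323 and 331. At all 4 of these sites the libraries of the treatments overlapped. Of the 9 AEBP2 sites within 1 kb of one of its starts, 1 became less (11.1%) and 2 more accessible (22.2%) by edgeR. By DESeq2 0 of them did so. Over all sites within 1 kb of a coding start the edgeR shares were 3.86% and 10.4%.

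Per 200 bp of site, the level in control rose from AEBP2 (186 ± 5.3 reads, SD, n = 3) over EZH1 (262 ± 6.9), EED (269 ± 23.0), JARID2 (289 ± 11.2), EZH2 (350 ± 20.02), MTF2 (393 ± 15.4), SUZ12 (478 ± 30.8) and RBBP4 (569 ± 32.8) to PHF19 (815 ± 31.5). EZH1 and EED, and EED and JARID2, overlapped between libraries, and the other neighbours in this order did not. The sites were chosen by total reads, and that of AEBP2 was 375 bp wide. Another promoter site, AEBP2 site 7, held 275 reads per 200 bp in control, so the place of AEBP2 in this order depends on the site chosen. The balance between pairs of subunits was read as the log2 ratio of promoter counts within each library. JARID2 and AEBP2 belong to the same form of the complex, so theirs is not a ratio of alternatives. EZH2 over EZH1 was 0.41 ± 0.10 (SD, n = 3) in control and 0.40 ± 0.07 with dm-αKG, MTF2 over PHF19 was −1.05 ± 0.10 and −1.06 ± 0.14, and JARID2 over AEBP2 was −0.24 ± 0.02 and −0.28 ± 0.19. None of the 3 differed by a two-sided exact permutation test (p = 0.8, 0.9 and 0.9, adjusted p = 0.9 for all 3), in which 3 against 3 libraries cannot give a p below 0.1.

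Across all sites of the 9 genes, 21 became less and 12 more accessible at an adjusted p below 0.05 (edgeR's quasi-likelihood test), which is 13.0% and 7.41% of the 162. Over all sites of the table the shares were 10.5% and 7.43%, so the genes as a group lay close to the background. Their median log2 fold change was −0.02, against 0.01 over all sites, and the libraries of the treatments did not overlap at 54 sites, 33.3%. At the study's stricter thresholds (adjusted p under 0.01 and a change over 1 on the log2 scale), 4 sites were called, all less accessible, where 1.96% of all sites were called less and 0.782% more accessible. They were AEBP2 sites 32 and 34, MTF2 site 9 and JARID2 site 36, and their number was 1 to 2 without control 1, control 2, control 3 or dm-αKG 2, and 7 without dm-αKG 3. Under DESeq2, the tool with which the study used these thresholds, 1 of the 162 sites was called, and 1 with offsets for GC. The shares of all sites given here are those of the main edgeR fit. The peak lists of the authors held 96 of the 162 sites in both treatments, 37 in control only and 29 with dm-αKG only. No share over all sites is given beside this split, so it cannot say whether these genes differ from the table.

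These counts changed when 1 library was left out, which also leaves fewer libraries for the test. Without control 1, control 2, dm-αKG 1 or dm-αKG 2 the less accessible sites numbered 10, 12, 12 and 10, and the more accessible sites numbered 7 without control 1, 7 without control 2 and 4 without dm-αKG 1. GC content moved with the change as well: over all sites the difference between treatments ran from −0.12 (log2) in the bin of lowest GC to 0.13 in the bin of highest, and the less accessible PRC2 sites had a median GC of 49.9% and the more accessible ones 60.3%. With offsets for GC, 15 sites were less and 14 more accessible, so the more accessible share of the changed sites moved from 36.4% to 48.3%. Over all sites of the table that share moved from 41.4% to 43.7%. The part of GC in the result was not tested.

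The sites were also divided by their distance from a gene start, and the shares followed those of the whole table. Of the 55 sites within 1 kb of a start of their own or another coding gene, 1 became less and 6 more accessible, where 3.86% and 10.4% did so over all such sites of the table. Of the 107 sites farther away, 20 became less (18.7%) and 6 more accessible (5.61%), where the shares over all such sites were 13.3% and 6.17%. JARID2 and AEBP2 held 71 of these 107 sites, and in the 36 sites of the other 7 genes 3 became less and 2 more accessible.

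**Figure D2:**
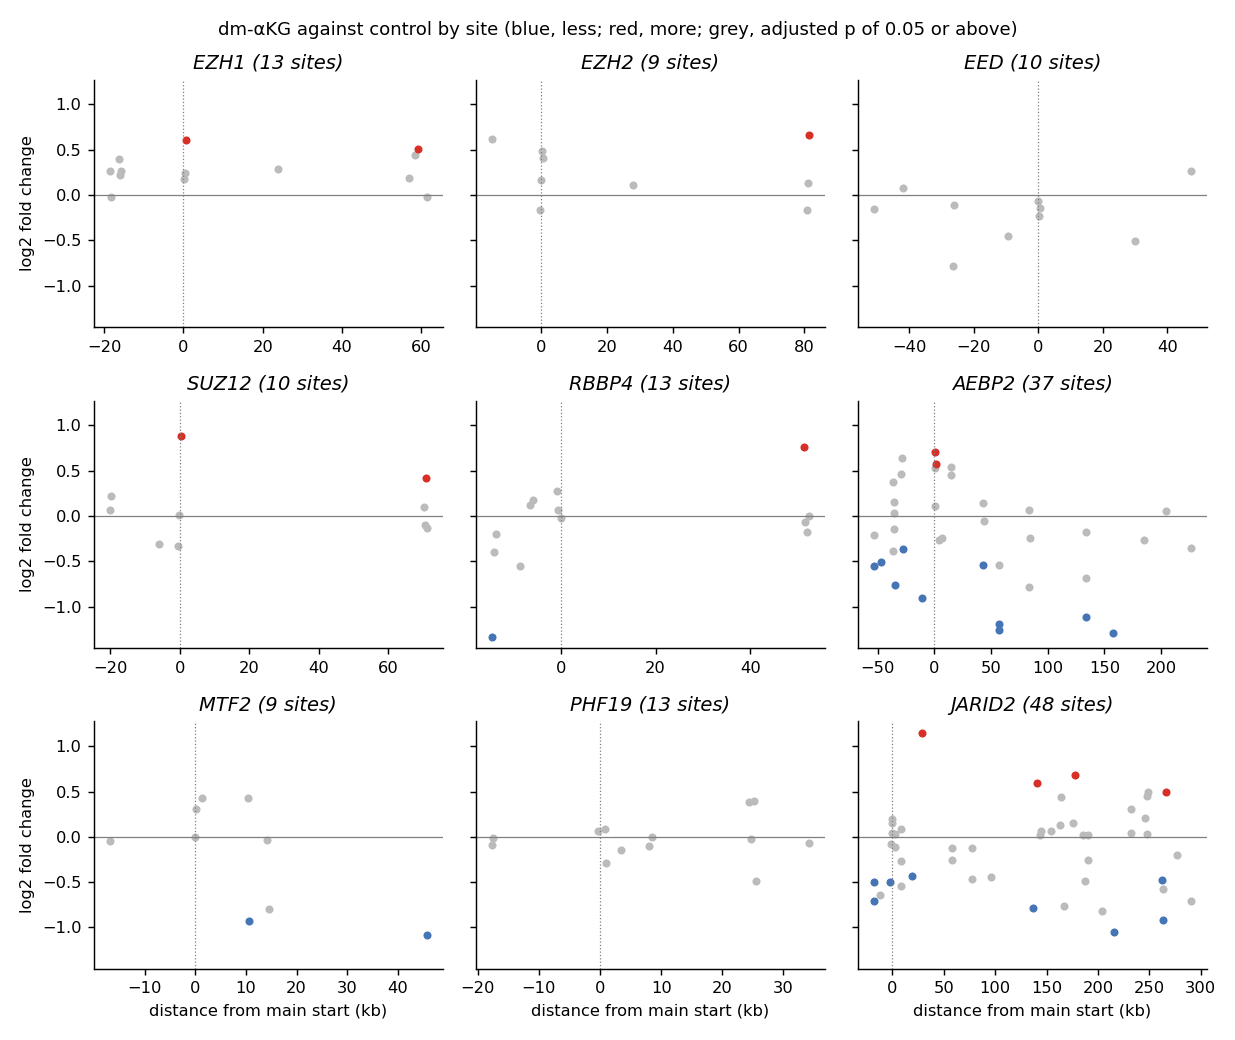
Log2 fold change, dm-αKG against control, of each of the 162 sites against its distance (kb) from the main transcript start, 1 panel a gene, with positive distances downstream. Blue and red points passed an adjusted p of 0.05 as less (21) and more (12) accessible and grey points did not; the blue points lie mainly within and upstream of AEBP2 and JARID2.

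JARID2 and AEBP2, the subunits of the JARID2-containing form of the complex, held 18 of the 21 less accessible sites, and also 48 and 37 of the 162 sites examined. At JARID2, 8 of 48 sites became less (16.7%) and 4 more accessible (8.33%), close to the 10.5% and 7.43% of all sites, and by edgeR 0 of its 5 promoter sites passed the test (0 at an unadjusted p below 0.05 and by the other tools). At AEBP2, 10 of 37 sites became less (27.03%) and 2 more accessible (5.41%). Outside its own promoters AEBP2 had 9 less and 0 more accessible sites of 28 by edgeR (10 and 2 at an unadjusted p below 0.05, 4 and 0 by DESeq2, 9 and 1 by limma voom), with a median log2 fold change of −0.31, and JARID2 had 8 and 4 of 43, with a median of −0.13. Over all sites of the table more than 1 kb from a coding start the shares were 13.3% less and 6.17% more accessible, with a median of −0.05. No difference between these genes and the table was tested.

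The clearest change of all was in an intron of JARID2, 215252 bp downstream of its main start. JARID2 site 36 (chr6:15461139-15461503) held 406, 420.1 and 406 reads in control and 199, 187 and 211 with dm-αKG. Every dm-αKG library lay far below every control. The log2 fold change was −1.05 ± 0.10 (SE), with an adjusted p of 9.66e-15 by edgeR, and it stayed between −1.08 and −0.92 in all 14 fits tried, each past the test.

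The promoter sites whose libraries followed JARID2 site 36 most closely, among 14542 compared, were those of PNRC1, a nuclear receptor coregulator, TMEM63C and HOMEZ. Pearson's r of log2 library-scaled counts over the 6 libraries was 0.998, 0.997 and 0.997, a description over libraries that share treatment and depth. Their log2 fold changes were −0.20, −0.56 and −0.41.

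Clear changes were also found in introns of AEBP2. AEBP2 site 23 (chr12:19482574-19482784), 43187 bp downstream of the main start, held 371, 405 and 367 reads in control and 255, 257 and 279.9 with dm-αKG, and its log2 fold change was −0.54 ± 0.09. The groups did not overlap. Its neighbour AEBP2 site 24 (chr12:19482876-19483076) was as high, with a mean of 378 in control and 370 with dm-αKG, and did not pass the test (adjusted p = 0.732, edgeR).

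Lower in count were AEBP2 site 32 (chr12:19573201-19573416), with 52.8, 51.8 and 38.9 reads in control and 17.9, 26.9 and 23.9 with dm-αKG, and AEBP2 site 34 (chr12:19597367-19597566), with 25.0, 31.2 and 51.0 against 20.1, 5.13 and 15.0. Both are intronic, and their log2 fold changes were −1.11 ± 0.28 and −1.29 ± 0.35 (SE). AEBP2 site 34 lost the call without control 3 (adjusted p = 0.0873, edgeR) or without dm-αKG 2 (adjusted p = 0.0714).

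The other less accessible AEBP2 sites among those of smallest p were site 25 (log2 fold change −1.26), site 27 (−1.19), site 9 (−0.77) and site 1 (−0.55), with sites 25 and 27 within 1 kb of each other. AEBP2 site 9, within 1 kb of an upstream start of the gene, was the only less accessible promoter site of the 9 genes. In contrast, AEBP2 site 17 lay at an exon 1150 bp downstream of the main start and 61 bp from another transcript start. It rose from 79.6, 57.5 and 65.6 reads in control to 101, 93.6 and 106, a log2 fold change of 0.57. All 5 of these calls were lost under DESeq2. They were also lost without control 1 or dm-αKG 2 at sites 25 and 1, without control 2 or dm-αKG 1 at site 17, without control 2, dm-αKG 1 or dm-αKG 2 at site 27, and without any of those 3 or control 1 at site 9, with adjusted p by edgeR between 0.0621 and 0.202.

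Around JARID2 the less accessible sites lay upstream, within the gene and near its end. JARID2 site 21 (chr6:15382873-15383085), intronic, held 86.8, 106.9 and 100.8 reads in control and 62.4, 32.1 and 76.3 with dm-αKG, with a log2 fold change of −0.78 ± 0.20 (SE). The libraries did not overlap, although dm-αKG 2 lay well below the other two, and without it the call was lost (adjusted p = 0.0694, edgeR). JARID2 site 2 (chr6:15228488-15228687), upstream of the main start, held 88.5, 101 and 89.9 against 54.5, 62.9 and 55.4, with a log2 fold change of −0.70 ± 0.19, and it was in the authors' control list only. Its neighbour JARID2 site 1 held 163, 181 and 137 against 86.8, 101 and 169, so dm-αKG 3 lay within the controls (log2 fold change −0.50). That call was lost under DESeq2 and without control 1, control 2, dm-αKG 1 or dm-αKG 2, with adjusted p by edgeR between 0.0576 and 0.318.

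Within the same gene other introns opened. JARID2 site 22 (chr6:15386435-15386639), between sites 21 and 30, rose from 69.8, 58.4 and 60.7 reads in control to 98.2, 85.9 and 100.3 with dm-αKG, and JARID2 site 30 (chr6:15423756-15423955) rose from 37.6, 43.6 and 51.0 to 64.5, 69.3 and 79.3. The log2 fold changes were 0.59 ± 0.18 and 0.68 ± 0.22 (SE), and the groups overlapped at neither. Both calls were lost under DESeq2 (adjusted p = 0.0543 and 0.0602), that of site 22 also without control 2 or dm-αKG 1, and that of site 30 without control 1, control 2 or dm-αKG 3, with adjusted p by edgeR between 0.0543 and 0.104.

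**Figure D3:**
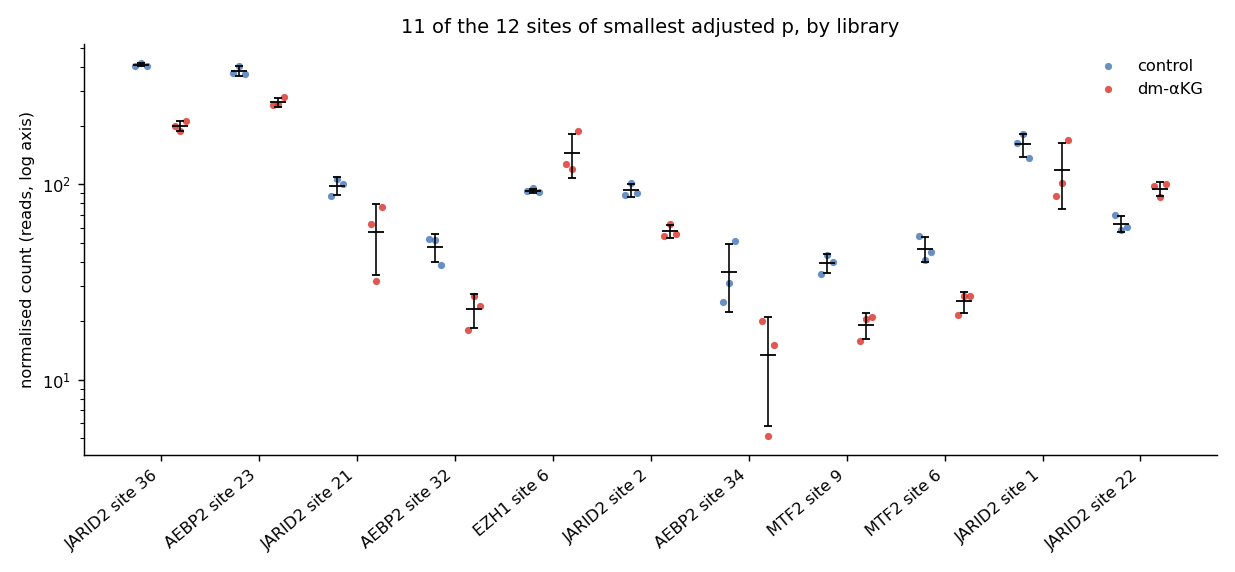
Normalised count (reads, log axis) of 11 of the 12 PRC2 sites of smallest adjusted p; points are libraries (3 control, blue; 3 dm-αKG, red) and black marks the mean ± SD. JARID2 site 36 falls from 406 to 420.1 reads in control to 187 to 211 with dm-αKG, and only EZH1 site 6 and JARID2 site 22 are higher with dm-αKG.

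At the methyltransferase genes, EZH1 had 2 more accessible sites of 13 (15.4%) and EZH2 1 of 9 (11.1%), against 7.43% of all sites. By edgeR 0 of their 22 sites became less accessible, against 10.5% of all sites (0 at an unadjusted p below 0.05, 0 by DESeq2 and by limma voom). Many of the 22 lie within 1 kb of a coding start, where 3.86% of all sites became less and 10.4% more accessible. The counts at EZH1 and EZH2 are small, and the difference from the other genes was not tested. EZH1 site 6 (chr17:42744367-42744567), in an intron 573 bp downstream of the main start, held 92.1, 95.4 and 91.1 reads in control and 128, 119 and 187 with dm-αKG. The controls were tight and dm-αKG 3 lay above the other two, and the log2 fold change was 0.61 ± 0.16 (SE, adjusted p = 0.00323, edgeR). Without dm-αKG 3 the call was lost (log2 fold change 0.42, adjusted p = 0.0688 by edgeR).

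EZH1 site 2 (chr17:42685842-42686041) lies 3′ of the gene, nearer to CNTNAP1 and CCR10, and held 97.5, 97.0 and 75.3 reads in control and 138, 106 and 142 with dm-αKG (log2 fold change 0.51). EZH2 site 1 (chr7:148802845-148803072), also 3′ of its gene, held 45.6, 36.2 and 44.9 against 61.7, 70.6 and 68.9 (0.66), and was chosen for mention after its values were seen. EZH1 site 2 lost the call without control 3 or dm-αKG 1 and EZH2 site 1 without control 2 or dm-αKG 2, both also under DESeq2, with adjusted p by edgeR between 0.0867 and 0.131. All 4 promoter sites of EZH1 and 3 of the 4 of EZH2 had dm-αKG libraries that did not overlap the controls, and of these 7 only EZH1 site 6 passed the test. Over all sites of the table, 32.4% did not overlap. The part of GC content in this was not tested.

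The remaining genes held 9 to 13 sites each, and their shares stand beside 10.5% less and 7.43% more accessible over all sites. Of the 10 SUZ12 sites 2 became more accessible by edgeR (20%), and 0 did so by DESeq2. SUZ12 site 6 (chr17:31937359-31937558), in the first coding exon 451 bp downstream of the start, rose from 14.3, 26.3 and 30.4 reads in control to 49.5, 33.4 and 44.9, a log2 fold change of 0.89 ± 0.29 (SE, adjusted p = 0.0233, edgeR). This site was chosen after its values were seen, and its call was lost under DESeq2 and without control 1 or dm-αKG 1 (adjusted p by edgeR 0.191 and 0.172). The only other change at SUZ12 was at site 9, within 1 kb of the start of LRRC37B. MTF2 had 2 less accessible intronic sites of 9 by edgeR (22.2%), and 2 by DESeq2. MTF2 site 9 (chr1:93124893-93125092) held 34.9, 43.6 and 40.1 against 15.8, 20.5 and 21.0, and MTF2 site 6 (chr1:93089877-93090076) held 54.6, 41.1 and 44.9 against 21.5, 26.9 and 26.9, with log2 fold changes of −1.08 ± 0.31 and −0.93 ± 0.28. Both groups of libraries stood apart, and each call was lost without dm-αKG 1 and without a control library (control 2 for site 9, control 1 for site 6), with adjusted p by edgeR between 0.0534 and 0.0958.

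RBBP4 had a more accessible site at the neighbouring gene SYNC, a log2 fold change of 0.76 at RBBP4 site 10, and a less accessible site of few reads upstream, RBBP4 site 1, with means of 16.2 in control and 5.89 with dm-αKG, which was chosen after its values were seen. Neither call held throughout: site 10 was lost under DESeq2 and without control 1, control 3, dm-αKG 1 or dm-αKG 2 (adjusted p by edgeR up to 0.187), and site 1 under limma voom, with the replicate block, with GC offsets and without control 1, control 2, dm-αKG 2 or dm-αKG 3 (up to 0.246), while DESeq2 gave site 1 no adjusted p. The shares of RBBP4 were 7.69% less and 7.69% more accessible, against 10.5% and 7.43% over all sites. By edgeR 0 of the 10 EED sites and 0 of the 13 PHF19 sites passed, with 1 of each at an unadjusted p below 0.05 and 0 by DESeq2 or limma voom. EED site 1 (chr11:86193591-86193794), upstream, was its highest site outside a promoter, with means of 249 ± 10.1 (SD, n = 3) and 229 ± 40.4. PHF19 site 1, the highest outside its promoters, lies at the start of PSMD5, and held means of 820.5 ± 65.9 and 785 ± 67.9.

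Where the highest site outside promoters was counted for the other genes, it did not pass the test for EZH1 (site 1, at CCR10 and CNTNAP1, 610.5 in control and 604 with dm-αKG), EZH2 (site 2, 168 and 185), SUZ12 (site 7, at LRRC37B, 362 and 391), RBBP4 (site 12, at SYNC, 406 and 359), AEBP2 (site 24, above) or MTF2 (site 4, 79.7 and 107). For JARID2 it was site 36 by total reads, at 365 bp a wide site. Per 200 bp it held 225 reads in control, beside the 229 of JARID2 site 40, which did not pass the test and was chosen after its values were seen.

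Summed over all its sites, each gene gave 1 value per library, which was tested together with the sums of 19091 coding genes. Over those genes 17.0% of sums were lower and 15.3% higher with dm-αKG. JARID2 fell from 4291, 4382 and 4185 reads to 3792, 3644 and 3911, a log2 fold change of −0.18 (95% interval −0.25 to −0.11), and AEBP2 from 3547, 3366 and 3384 to 2896, 2993 and 3041 (−0.21, −0.28 to −0.14). EED fell from 1074, 1197 and 1014 to 924, 991 and 1021, where the libraries overlapped (−0.18, −0.30 to −0.05). EZH1 rose from 1707, 1761 and 1715 to 1931, 1907 and 1982 (0.17, 0.08 to 0.25), and EZH2 from 973, 978 and 915 to 1033, 1141 and 1034 (0.16, 0.04 to 0.27).

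The adjusted p of edgeR was 9.28e-05 for JARID2, 3.34e-05 for AEBP2, 0.0237 for EED, 0.00263 for EZH1 and 0.0315 for EZH2. SUZ12 (0.04), RBBP4 (−0.06), MTF2 (−0.05) and PHF19 (−0.08) did not pass. AEBP2, JARID2 and EZH1 passed in all 14 fits. With offsets for GC their changes were −0.15, −0.12 and 0.15. EED did not pass under DESeq2, with GC offsets, without control 2 or without dm-αKG 1, EZH2 did not pass under DESeq2, with GC offsets, with sites inside the gene only, or without control 1, control 3 or dm-αKG 2, and PHF19 passed without dm-αKG 3 (−0.11). The windows of neighbouring coding genes share sites, so these sums also hold the starts of CNTNAP1, CCR10 and RAMP2 at EZH1.

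**Figure D4:**
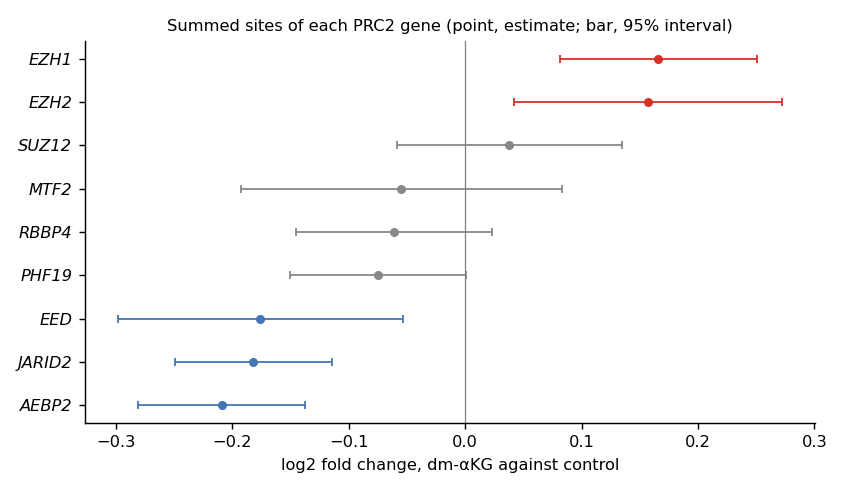
Log2 fold change, dm-αKG against control, of the counts summed over all sites of each of the 9 genes (point) with its 95% interval (bar). Red and blue genes passed an adjusted p of 0.05: EZH1 (0.17) and EZH2 (0.16) lie above 0, JARID2 (−0.18), EED (−0.18) and AEBP2 (−0.21) below it.

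The rest of the Polycomb system was read at the promoter site of 35 further genes, and here more genes gained accessibility. Of these sites 10 became more and 1 less accessible (28.6% and 2.86%), against 8.53% and 5.11% of all promoter sites. By DESeq2 these numbers were 7 and 0. The median log2 fold change of the 35 sites was 0.11, close to the 0.10 of all sites within 1 kb of a coding start. By list, 2 of 5 other PRC2 partners rose (EPOP and RBBP7), 6 of 22 PRC1 genes rose and 1 fell, 1 of 6 genes of the deubiquitinase PR-DUB rose, and 1 of the 2 H3K27 demethylases rose. With offsets for GC, the median of the 35 sites was 0.01. Under these offsets 6 were more and 2 less accessible, which moved the more accessible share of the changed sites from 90.9% to 75%. Over all sites of the table, not only promoter sites, that share moved from 41.4% to 43.7%. The part of GC was not tested here either.

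PCGF2, a RING finger subunit of canonical PRC1, changed most, from 139, 179 and 148 reads in control to 292, 239 and 262 with dm-αKG (chr17:38749790-38749990). Its log2 fold change was 0.77 ± 0.12 (SE, adjusted p = 3.66e-07, edgeR), and it passed in all 14 fits. Of the chromobox genes, whose proteins bind H3K27me3, CBX7 rose from 118, 103 and 79.0 to 162, 162 and 121 (log2 fold change 0.57), and CBX6 from 185, 192 and 142 to 226, 244 and 226 (0.40). Both stood apart between treatments. L3MBTL2, of a variant PRC1, rose from 617, 516 and 483 to 635, 659 and 679.5 (0.28). L3MBTL2 lost the call without control 3, CBX7 without control 3 or dm-αKG 1, and CBX6 without control 3 or dm-αKG 2 (adjusted p by edgeR between 0.0526 and 0.108), and CBX6 also with GC offsets. The paralogues RNF2 and RING1 were chosen after their values were seen. RNF2, the main ubiquitin ligase of PRC1, fell from 325, 354 and 379 to 272, 318 and 287 (−0.27), and RING1 rose from 81.4, 102.8 and 91.1 to 127, 139.8 and 114 (0.47). Both calls were lost under DESeq2 and without control 3 or dm-αKG 1, that of RNF2 also without control 2 and that of RING1 without control 1 or dm-αKG 2 and with GC offsets (adjusted p by edgeR between 0.0649 and 0.217).

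BAP1, the deubiquitinase that removes the PRC1 mark, rose from 211, 203 and 154 to 278, 244 and 290.4 (0.50), at a site whose nearest coding start is that of PHF7. KDM6B rose from 345, 398 and 363 to 522, 398 and 457 (0.33), so dm-αKG 2 lay within the controls, and without dm-αKG 1 the call was lost (adjusted p = 0.169, edgeR). KDM6A did not pass. RBBP7, the paralogue of RBBP4, rose from 189, 188 and 189 to 237, 278 and 208 (0.35), whereas RBBP4 gave −0.02, and the difference between these changes was not tested. The call at RBBP7 was lost under DESeq2 and without control 1, control 2, dm-αKG 1 or dm-αKG 2 (adjusted p by edgeR up to 0.204). Without control 3, dm-αKG 1 or dm-αKG 2 the number of more accessible promoter sites among the 35 was 5, and without control 2 or control 3 no site passed as less accessible.

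**Figure D5:**
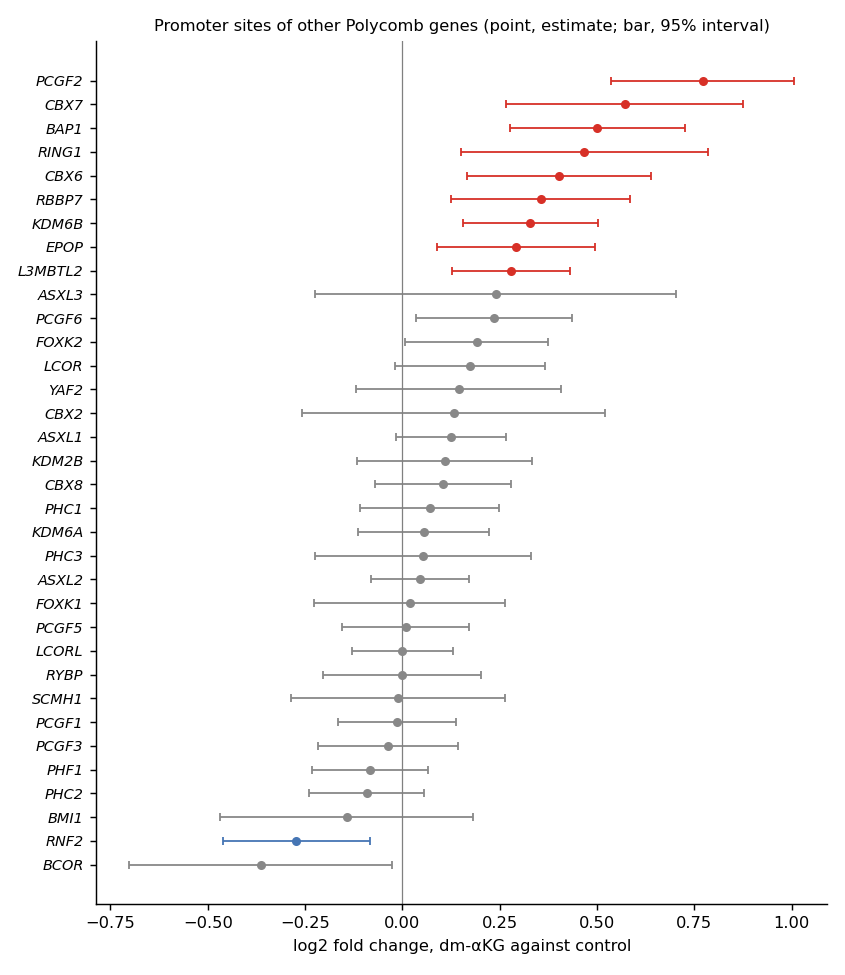
Log2 fold change, dm-αKG against control, of the promoter site of 34 of the 35 other Polycomb genes (point) with its 95% interval (bar). The 9 red genes, from PCGF2 (0.77) to L3MBTL2 (0.28), passed an adjusted p of 0.05 as more accessible, and RNF2 (blue, −0.27) as less accessible.

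The sequence of the sites was read for 10 short motifs in 200 bp around each centre, on both strands, as a description. AP-1 (TGANTCA) was found in 13 of the 162 sites (8.02%), against 6.33% of all sites, and 3 of the 13 changed, namely EZH1 site 6 upwards and AEBP2 sites 1 and 27 downwards. The KLF motif (GGGNGGGG) was found in 31 (19.1%, against 23.6%) and in 7 of the 9 promoter sites, where 45.4% of all promoter sites held it. FOX (TGTTTAC) was found in 4.94% against 2.86%, TEAD (ACATTCC) in 4.94% against 4.49%, and E2F (TTTNNCGC) in 3.09% against 3.06%. The E2F motif lay in the promoter sites of EZH2 and MTF2 and in SUZ12 site 6, and in 5.78% of all promoter sites. OCT (ATGCAAAT) and SOX (CATTGTT) were each found in 2 sites, 1.23%, against 2.28% and 2.43%, none of them changed, while OCT lay in 5.31% and SOX in 4.73% of all less accessible sites of the table. ETS (CCGGAAG), YY1 (AAGATGGC) and CTCF were found in 4, 1 and 2 sites, none of which changed. JARID2 site 36, JARID2 site 21 and AEBP2 site 32 held none of the motifs.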

How the data were processed

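ATAC-seq libraries of H9 nES cells, 3 control and 3 dm-αKG, were grouped by the treatment in the labels. The authors trimmed the reads, aligned them to hg38 with Bowtie 2, filtered them in the ENCODE pipeline, ran it once per treatment and called peaks with MACS2 (tools per the submitters' processing notes, bedtools 2.28.0 among them). The authors deposited 1 peak list per treatment with a score, a fold enrichment and a −log10 q-value for each peak, which were used here only to say which list held a site. Each peak was shortened to 200 bp centred on its summit, both lists were joined, and the authors deposited raw counts of reads per site and library, 13025674 to 26828622 in all. The labels name no molecular identifiers, so reads were not taken as independent molecules.

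All sites were fitted with edgeR 4.0.16 in R 4.3.3 (TMM, treatment as the only term, quasi-likelihood test, no filter), with Benjamini-Hochberg adjustment over all 171517 sites. Standard errors are the change over the square root of F. Members were sites overlapping by at least 1 base the genes of GENCODE 44 extended by 20 kb, and 0 sites ran past the end of an hg38 chromosome. Sequences were aligned to hg38 with minimap2 2.31 to find second copies, and motifs were searched without mismatches (Python 3.11.15, pysam 0.24.0). The members and lists were chosen with earlier results of these data known. Sites described were the promoter site of each gene, the highest other site of each gene, the 20 changed sites of smallest adjusted p, the 8 other Polycomb genes of smallest adjusted p and the 3 promoter sites most alike to the first site, with exceptions stated, except that 1 site and 1 gene of these are not reported here. Alternatives were RLE scaling, total counts, DESeq2 1.42.0, limma 3.58.1 with voom, a filter of 10 counts in every library, windows of 0 and 50 kb, a replicate block, omission of each library and, added after the data were seen, offsets over 20 bins of GC. On simulated counts for the 171517 sites edgeR recovered 77 of 100 sites changed by 1 and 100 of 100 changed by 2 on the log2 scale, with 7 false calls. DESeq2 recovered 62 and 98 with 0 false calls, and limma voom 77 and 100 with 6. The simulation gave all sites 1 common spread and no GC trend, and it changed only sites with a mean of at least 20 reads. Its error rates therefore need not hold for the PRC2 sites.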

Additional observations from a re-analysis of the deposited data

How the results depend on the processing

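Of the 20 sites described by their smallest p, all kept their direction and call under RLE scaling, total counts, limma voom, the replicate block and GC offsets, 17 kept both with at least 10 counts in every library (the other 3 were not tested there), and DESeq2 lost 10 of the calls and single omitted libraries 2 to 9. DESeq2 gave no adjusted p for 9 of the 162 sites. The less accessible sites numbered 9 under DESeq2, 8 at an adjusted p below 0.01 and 10 to 22 with 1 library left out, against 21, and the more accessible ones 1, 1 and 4 to 9, against 12. Sites called at the study's thresholds numbered 1 under DESeq2 and with GC offsets, 7 within 50 kb and 1 to 7 with 1 library left out, against 4. Other Polycomb promoters that were less accessible numbered 0 under DESeq2, 2 with GC offsets and 0 to 1 with 1 library left out, and more accessible ones numbered 6 with GC offsets and 5 to 12 with 1 library left out. Summed loci that rose numbered 1 under DESeq2, 1 inside the genes, 1 with GC offsets and 1 to 2 with 1 library left out. The shares of all sites under the same settings are not set beside these counts, and the cause of the shifts was not tested.

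None of the 9 highest promoter sites passed in any fit, and 6 of them changed direction in at least 1. Those of EZH1 and EZH2 stayed between 0.071 and 0.22 and between 0.062 and 0.21 in the 14 fits, GC offsets among them. With 1 library left out the log2 fold change ran from −0.038 to 0.060 at SUZ12, −0.047 to 0.025 at RBBP4, −0.080 to 0.060 at MTF2, −0.032 to 0.039 at PHF19 and −0.0041 to 0.15 at JARID2. It was −0.13 at SUZ12, −0.0013 at AEBP2 and −0.088 at PHF19 with GC offsets, −0.00030 at SUZ12 and −0.0081 at PHF19 with at least 10 counts, −0.0062 at PHF19 under limma voom and 0.014 at MTF2 with total counts. The ratios, dm-αKG minus control, ran from −0.065 to 0.033 for EZH2 over EZH1, −0.063 to 0.070 for MTF2 over PHF19 (0.035 over all promoter sites) and −0.15 to 0.031 for JARID2 over AEBP2. The replicate numbers did not pair the libraries, as the deviations of same-numbered libraries correlated at −0.015, 0.0011 and 0.017 and 1 of 3 controls matched its own number best. With the replicate block, 20 sites were less and 11 more accessible, and MTF2's promoter gave 0.00028. Sites with few reads limit precision, since 13 of the 20 sites had normalised counts below 100 in every control library.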

Other observations

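Beyond the 20 kb windows, 75 further sites lay 20 to 50 kb from the genes, and 7 of them became less and 6 more accessible by edgeR, close to the shares of all sites (10.5% and 7.43%). The 3 less accessible sites upstream of JARID2 stood close together and were chosen after their values were seen. The first (chr6:15210824-15211042) fell from a mean normalised count of 111 in control to 76.5 with dm-αKG, the second (chr6:15211158-15211357) from 90.0 to 32.5, and the third (chr6:15211508-15211707) from 57.5 to 14.6. Their log2 fold changes were −0.58, −1.47 and −1.87 (adjusted p = 0.012, 1.31e-07 and 7.50e-07, edgeR), so the second and the third moved more than any of the 162 sites nearer to the genes. Near RBBP4, a site in ZBTB8OS (chr1:32618783-32618987) fell from 173 to 93.2 (−0.87), and near EZH1 a site within 1 kb of the start of WNK4 (chr17:42780044-42780245) rose from 35.0 to 69.4 (1.01). The WNK4 site held 34.9, 33.7 and 36.4 in control and 73.1, 96.2 and 38.9 with dm-αKG, so dm-αKG 3 lay close to the controls. Whether these sites act on the PRC2 genes was not measured.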
